A study of Homo sapiens with 8 samples.

Results

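The BCL2 family genes BCL2, BCL2L1, MCL1, BAX, BAK1, BBC3, PMAIP1, BCL2L11, BID and BIK were followed across 8 expression arrays of human cancer cell lines, each read in 2 colours. Probes were found by the gene symbol in the array design. All 10 genes had at least 1 probe, out of 43317 genes with a probe. Where a gene had several probes, the brightest over the arrays was used. Signals are the software's processed intensities, which are not scaled between arrays and are compared here only within an array. The values are log2 ratios of transfected over mock cells, so that 1 is a 2-fold higher and -1 a 2-fold lower signal.

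BCL2 family proteins decide at the outer mitochondrial membrane whether a cell starts apoptosis. BCL2, BCL-XL (the product of BCL2L1) and MCL1 hold the pathway back, BAX and BAK1 form the pores that release cytochrome c, and the BH3-only proteins relay stress to both of these groups. The BH3-only proteins measured here are PUMA (BBC3), NOXA (PMAIP1), BIM (BCL2L11), BID and BIK. MicroRNAs pair with mRNAs mainly through their seed, bases 2 to 8, and lower the mRNA or its translation. Many tumours keep their anti-apoptotic members high, and several of these mRNAs are known microRNA targets.

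FaDu cells, from a hypopharyngeal squamous cell carcinoma, were transfected with miR-99a-5p or with miR-99a-3p. PC3 prostate cancer cells received miR-150-5p, miR-150-3p, miR-99a-3p or miR-100-3p, and PANC-1 pancreatic cancer cells received si-FOXQ1-1 or si-FOXQ1-2, siRNAs against the forkhead transcription factor FOXQ1. All RNAs were delivered with Lipofectamine RNAiMAX, and each condition was 1 array on a single slide. Mock cells, labelled as having no transfection, were in the Cy3 channel and transfected cells in the Cy5 channel of every array. No control RNA was transfected on any array, and no dyes were swapped, so an effect of dye, of the reagent or of any small RNA cannot be told apart from that of the sequence named. With 1 array per condition the ratios of transfected over mock cells have no replicate and no test, and each is given with the spot error that the scanner software computed. That error covers 1 hybridisation and not the spread between cultures.

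The microRNA sequences are shown because miR-99a-3p and miR-100-3p, given to the same cell line, are close relatives, and because the 5p and 3p strands of miR-99a are arms of a single hairpin. They are RefSeq sequences on GRCh38.p14, written 5′ to 3′ with the seed in capitals. The hairpin of miR-99a gave miR-99a-5p at chr21:16539101-16539122 and miR-99a-3p at chr21:16539138-16539159, both on the plus strand, and miR-100-3p lies at chr11:122152240-122152261 on the minus strand.
miR-99a-5p: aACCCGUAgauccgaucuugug
miR-99a-3p: cAAGCUCGcuucuaugggucug
miR-100-3p: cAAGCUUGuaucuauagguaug
Counted from the 5′ end, miR-100-3p differs from miR-99a-3p at 5 of 22 bases, C7U, C9U, U10A, G16A and C20A, and C7U is the 1 difference inside the seed. Of the 5 microRNAs transfected, these 3 were in the table of sequences used here.

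FOXQ1 itself had log2 ratios of -2.16 with si-FOXQ1-1 and -2.12 with si-FOXQ1-2, from mock signals of 4887 and 4557, so the direction of the ratios and both PANC-1 labels hold for the targeted gene. All 6 squamous markers were well above background in the FaDu mock channels. In PC3, 3 of 6 prostate markers were well above background on all arrays and KLK3 and ACPP on none, and in PANC-1 the ductal markers KRT7, KRT19, SOX9 and MUC1 were, with PDX1 dim. Well above background is the scanner software's call for a signal that clears the local background. It was made for 44.5% to 49.2% of the gene spots in the mock channels and for 37.2% to 41.8% in the transfected channels.

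Mock channels were compared before any were averaged. Over 278 probes printed at 10 or more spots, the mock channels of the FaDu arrays, of both miR-150 arrays, of the PC3 miR-99a-3p and miR-100-3p arrays and of the PANC-1 arrays differed within each pair by an SD of 0.0186 to 0.0250 log2 units, near the 0.0159 to 0.0193 that the spread of spots gives. PC3 mock channels of different pairs differed by 0.0935 to 0.0998. Each pair was therefore counted as 1 mock RNA, which leaves 2 for PC3 and 1 each for FaDu and PANC-1. The labels do not say whether the channels of a pair held the same RNA. In what follows, arrays said to share a mock RNA are the arrays of such a pair, taken to share their control.

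A member was called when it was at least 2-fold higher or lower and well above background in at least 1 channel. On the FaDu miR-99a-5p array none of the 9 members detected was called, where 0.851% of all genes detected were higher and 4.86% lower. FaDu cells with miR-99a-3p had 1 member higher, BID, and 2 lower, BIK and BBC3, of 9 detected, on an array where 8.25% of genes were higher and 9.37% lower. In PC3, miR-150-5p gave no call among 10 members against 0.664% of genes higher and 4.49% lower. miR-150-3p gave 2 lower, BCL2 and BCL2L1, against 2.69% higher and 6.68% lower. miR-99a-3p gave 1 higher, BCL2L11, against 4.23% higher and 7.39% lower. miR-100-3p gave 1 higher, BIK, and, by its measured ratio with the transfected channel dim, 1 lower, BCL2, against 0.987% higher and 3.34% lower. Neither siRNA gave a call among the 8 members detected in PANC-1, where 0.905% of genes were higher and 3.31% lower with si-FOXQ1-1 and 0.412% and 3.29% with si-FOXQ1-2. All but 1 of the members' detected values had both channels well above background. Among all genes with both channels so, 7.68% were higher and 5.48% lower in FaDu with miR-99a-3p, 2.62% and 2.28% in PC3 with miR-150-3p, and 4.18% and 3.99% in PC3 with miR-99a-3p. The shares higher and lower were 0.894% and 0.165% in FaDu with miR-99a-5p, 0.630% and 0.783% in PC3 with miR-150-5p and 0.944% and 0.334% in PC3 with miR-100-3p. In PANC-1 they were 0.883% and 0.366% with si-FOXQ1-1 and 0.344% and 0.374% with si-FOXQ1-2, so the shares lower are smaller on every array than with 1 lit channel allowed. BCL2 was called lower on 2 PC3 arrays, with only a bound below 2-fold on the miR-100-3p array, and BIK was called in opposite directions in FaDu and PC3. No other member was called on more than 1 array.

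**Figure D1:**
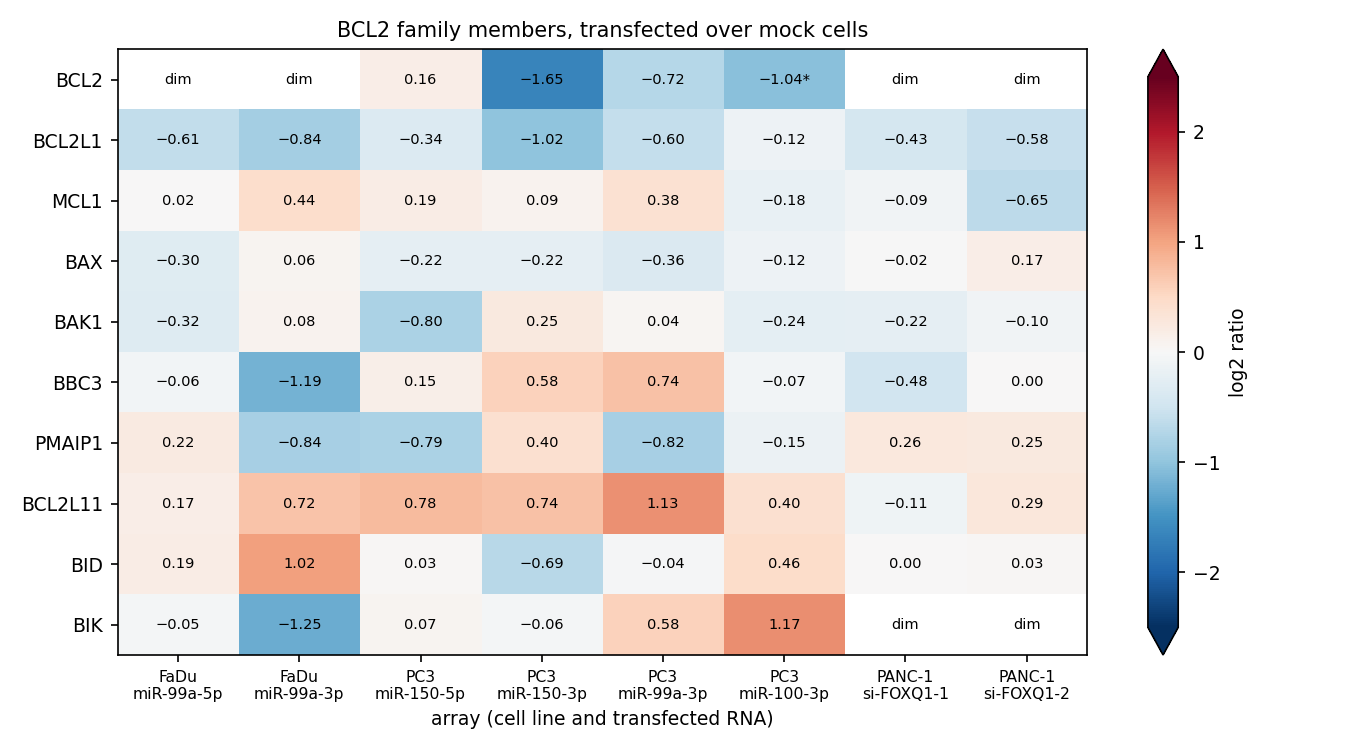
Log2 ratio of transfected over mock cells for each member (rows) on each array (columns), with blue for lower and red for higher in transfected cells. White cells marked dim were not well above background in either channel, and the asterisk marks a ratio with only the mock channel well above background. BCL2L1 is below 0 in all 8 columns, and the 8 calls fall in 4 columns.

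The members' median absolute log2 ratio, over members well above background in both channels, was largest for FaDu miR-99a-3p at 0.84 and next for PC3 miR-99a-3p at 0.59 and PC3 miR-150-3p at 0.49. The same measure over all genes was 0.40, 0.33 and 0.28 on these arrays. On the other 5 arrays it lay between 0.16 and 0.21 for the members and between 0.16 and 0.20 for all genes. The signed medians of the members stayed between -0.12 and 0.06, so members on each array lay on both sides of 0.

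BCL2, the founding anti-apoptotic member, was measured in PC3 cells only, since its probe was dim in both channels of all FaDu and PANC-1 arrays. Its brightest probe lies at chr18:60790723-60790782 on the minus strand (hg19). With miR-150-5p the signal was 109 in mock and 122 in transfected cells, a log2 ratio of 0.16 with a spot error of 0.22. With miR-150-3p it was 152 in mock and 48.4 in transfected cells, a log2 ratio of -1.65 with a spot error of 0.29, or 3.14-fold lower. With miR-99a-3p it was 105 and 63.8, a log2 ratio of -0.72 with a spot error of 0.31. BCL2 was thus below mock by more than the spot error with miR-150-3p and miR-99a-3p and within the spot error with miR-150-5p. With miR-100-3p the transfected channel, at 28.6, was not well above background against 58.9 in mock cells, so BCL2 was at least 1.88-fold lower there. The bound is 1.27-fold when the highest dim signal is taken as the limit.

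The second BCL2 probe, at chr18:60985401-60985460, gave 0.07 with miR-150-5p and, with its transfected channel dim, at least 2.04-fold lower with miR-150-3p. With miR-99a-3p it read 48.9 in mock and 27.6 in transfected cells, and with miR-100-3p 34.7 and 31.6, each with the transfected channel dim. The log2 ratios were -0.82 and -0.14, with spot errors of 0.57 and 0.44. Transfected signals up to 73.4 and 46.5 were dim on these arrays, above both mock signals. With the highest dim signal as the limit this probe therefore gave no bound there. These signals are near the floor of the array, where the lowest PC3 signals well above background were 28.0 to 45.8 in the transfected channel. The PC3 mock RNAs themselves differed in BCL2: the log2 level over the array's 75th percentile was -0.65 in the RNA of the miR-150 arrays and -1.47 in the other, a difference of 0.82. Against that other RNA the miR-150-3p ratio would be -0.78 in place of -1.65, below 2-fold, and the miR-150-5p ratio 0.91 in place of 0.16. Against the RNA of the miR-150 arrays the miR-99a-3p ratio would be -1.46 in place of -0.72. The miR-100-3p ratio, with its transfected channel dim, would be -1.94 in place of -1.04. With background correction by normexp the miR-150-3p ratio was -0.88.

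**Figure D2:**
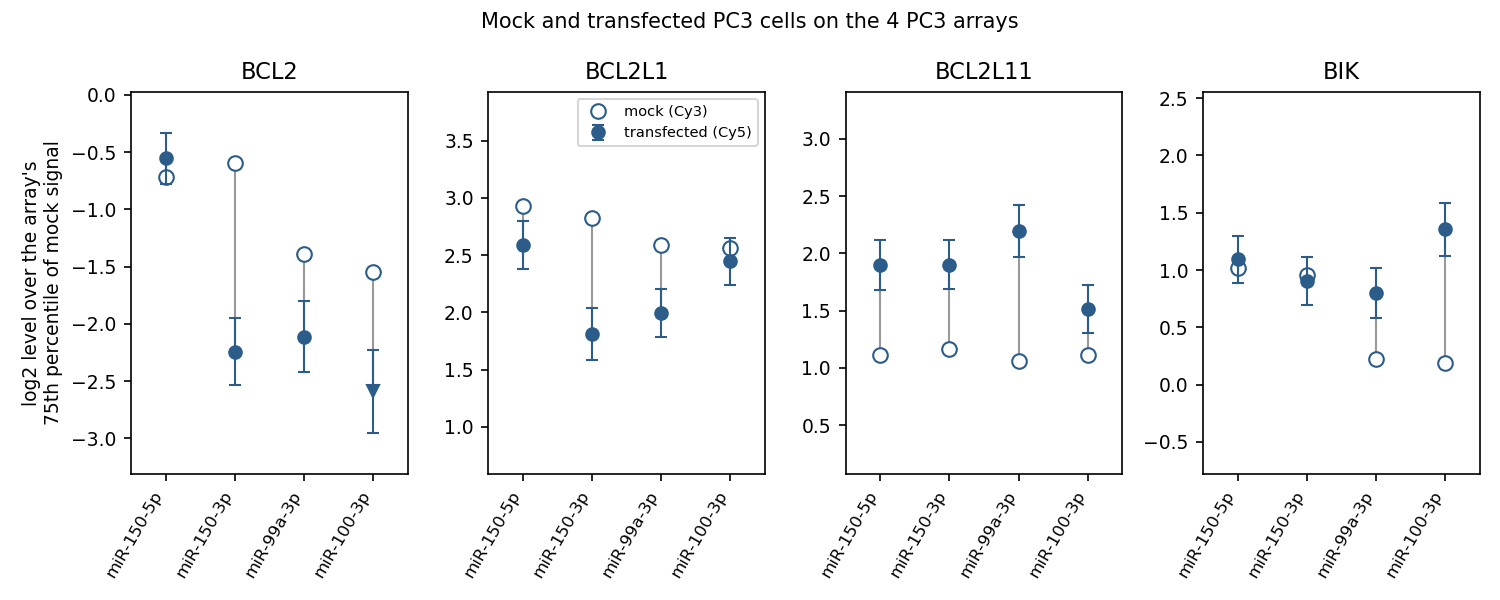
Log2 level over the array's 75th percentile of mock signal for 4 members on the PC3 arrays, with open circles for mock and filled symbols for transfected cells, bars for the spot error of the ratio, and a triangle for the channel not well above background. The panels span the same range, and the open circles of BCL2 and BIK sit lower on the miR-99a-3p and miR-100-3p arrays than on the miR-150 arrays.

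BCL2L1 was the member with the same sign on every array. Its log2 ratios were -0.61 with miR-99a-5p and -0.84 with miR-99a-3p in FaDu. In PC3 they were -0.34 with miR-150-5p, -1.02 with miR-150-3p, -0.60 with miR-99a-3p and -0.12 with miR-100-3p, and in PANC-1 -0.43 with si-FOXQ1-1 and -0.58 with si-FOXQ1-2. The spot errors were 0.20 to 0.22, and the miR-100-3p ratio was the only one inside its own error. On the miR-150-3p array the signal was 1629 in mock and 806 in transfected cells, 2.02-fold lower, and this is the only array where it reached 2-fold. Of the 13243 genes well above background in both channels of all arrays, 3.14% were below 0 on all 8. The same reagent and the same dye were used for transfected cells on every array, so these cannot be told apart from the RNAs delivered.

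The PC3 mock RNAs differed in BCL2L1 by 0.30, and against the other RNA the ratios became 0.01 with miR-150-5p, -0.76 with miR-150-3p, -0.88 with miR-99a-3p and -0.43 with miR-100-3p. With 1 mock RNA as the control of all 4 PC3 arrays, either RNA gave the same order. From the lowest it was miR-150-3p, miR-99a-3p, miR-100-3p and miR-150-5p, the last 2 apart by less than the spot error. With own mock channels miR-100-3p lay above miR-150-5p, and miR-150-3p and miR-99a-3p were the lowest of the 4 throughout. The BCL2L1 probe maps to chr20:30253324-30253383 on the minus strand (hg19), and the array holds no other probe that would separate its isoforms.

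MCL1, a short-lived anti-apoptotic protein, was never past 2-fold. Its log2 ratio ranged from -0.65 with si-FOXQ1-2 to 0.44 with miR-99a-3p in FaDu, with a median of 0.05 over the 8 arrays, and 5 of the 8 values were inside the spot error. The 2 siRNAs against the same gene differed for MCL1, with -0.09 for si-FOXQ1-1 (signal 1108 in mock and 1039 in transfected cells) and -0.65 for si-FOXQ1-2 (952 and 608). On the 2 arrays with miR-99a-3p it was higher than mock, by 0.44 in FaDu and 0.38 in PC3, against spot errors of 0.21 on each.

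Neither effector was past 2-fold on any array. BAX was printed at 10 spots, whose log2 ratios had an SD of 0.03 to 0.05 on each array, and lay between -0.36 with miR-99a-3p in PC3 and 0.17 with si-FOXQ1-2. All 4 PC3 ratios and the FaDu miR-99a-5p ratio of -0.30 were below 0. Its second, dimmer probe gave -0.88 with miR-99a-3p in PC3 and 0.53 with miR-99a-3p in FaDu, where the 10-spot probe gave -0.36 and 0.06. The probes differ in size on those arrays and have the same sign on all 8. BAK1 lay between -0.80 and 0.25. Its lowest value was with miR-150-5p, where the signal was 2826 in mock and 1625 in transfected cells. PMAIP1 at -0.79 and BCL2L11 at 0.78 lay as far from 0 on that array. On the miR-150-3p array, which has the same mock RNA, BAK1 was 0.25 with 3276 and 3884.

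BH3-only genes, which are 5 of the 10 members, made 5 of the 8 calls. BIK, which is known to act at the endoplasmic reticulum and was found as an interactor of BCL2, was at 12667 in FaDu mock and 5330 in cells with miR-99a-3p, a log2 ratio of -1.25 with a spot error of 0.23, or 2.38-fold lower. The FaDu miR-99a-5p array had 7296 and 7066, a ratio of -0.05. In PC3 the mock and transfected signals were 364 and 383 with miR-150-5p, 446 and 429 with miR-150-3p, 321 and 479 with miR-99a-3p, and 196 and 440 with miR-100-3p. The log2 ratios were 0.07, -0.06, 0.58 and 1.17, and the last, with a spot error of 0.23, is 2.25-fold higher.

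The higher BIK ratios fell on the arrays whose mock channel was low. The mock level was 0.99 in the PC3 mock RNA of the miR-150 arrays and 0.20 in the other, a difference of 0.79. Against the miR-150 arrays' mock RNA, the BIK ratio would be 0.36 with miR-100-3p and -0.19 with miR-99a-3p, in place of 1.17 and 0.58. Against the other PC3 mock RNA it would be 0.89 with miR-150-5p and 0.70 with miR-150-3p, in place of 0.07 and -0.06. In PANC-1 BIK was dim in both channels.

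The PC3 mock RNAs can be set beside each other for every member. BCL2, at 0.82, and BIK, at 0.79, differed most between them, BCL2L1 and BID differed by 0.30 and 0.28, and the other 6 by 0.17 or less in size. No member reached 2-fold, as 0.669% of the 18981 genes well above background in all PC3 mock channels did, and the median absolute difference was 0.15 for the members and 0.14 for all genes. The labels do not say how the mock RNAs were obtained.

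BBC3, which codes for the potent BH3-only protein PUMA, was 2.28-fold lower in FaDu with miR-99a-3p, with a mock signal of 2969, a transfected signal of 1300 and a log2 ratio of -1.19 with a spot error of 0.23. In PC3 with the same microRNA it was higher, at 997 against 599, a log2 ratio of 0.74 with a spot error of 0.22. The other PC3 ratios were 0.15 with miR-150-5p, 0.58 with miR-150-3p and -0.07 with miR-100-3p, and the remaining ones -0.06 with miR-99a-5p in FaDu, -0.48 with si-FOXQ1-1 and 0.00 with si-FOXQ1-2. The siRNAs differed here too, with si-FOXQ1-1 below mock by more than its spot error of 0.21.

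PMAIP1, whose protein NOXA is known to bind MCL1, was not past 2-fold on any array. Its log2 ratio was -0.84 in FaDu with miR-99a-3p, -0.82 in PC3 with miR-99a-3p and -0.79 in PC3 with miR-150-5p. The signals there were 2275 and 1272, 3753 and 2125, and 3014 and 1749 in mock and transfected cells. PMAIP1 was above mock by 0.40 with miR-150-3p and by 0.22 to 0.26 with miR-99a-5p and both siRNAs, so the strands of miR-150 gave opposite signs in PC3 against the same mock RNA. The difference between them was not tested, since each was measured once.

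BCL2L11 was the only member with a higher call in PC3 with miR-99a-3p, where the brightest probe read 575 in mock and 1261 in transfected cells. The log2 ratio was 1.13 with a spot error of 0.23, or 2.19-fold higher. The same probe gave 0.72 in FaDu with miR-99a-3p, 0.78 with miR-150-5p, 0.74 with miR-150-3p, 0.40 with miR-100-3p, 0.17 with miR-99a-5p, 0.29 with si-FOXQ1-2 and -0.11 with si-FOXQ1-1. It was above 0 on 7 of 8 arrays, and against the other PC3 mock RNA the miR-99a-3p ratio was 1.06.

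The 3 BCL2L11 probes did not agree. All lie on the plus strand of chromosome 2 (hg19), the brightest at chr2:111925892-111925951, which is the farthest downstream, and the others at chr2:111878705-111878764 and chr2:111886352-111886411. BIM mRNA is known to be spliced into several forms. In PC3 with miR-99a-3p the upstream probe gave 0.53 (208 in mock and 299 in transfected cells) and the middle probe -0.19 (258 and 225), beside 1.13 for the downstream probe. In FaDu with miR-99a-3p they gave -0.81, -0.41 and 0.72 in the same order, with spot errors of 0.22, 0.23 and 0.22, so the sign itself turned along the gene. With miR-150-3p the values were 0.05, -0.15 and 0.74. The mean over the probes was 0.49 in PC3 with miR-99a-3p, which is no longer a 2-fold call, and -0.17 in FaDu.

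BID, the link from caspase-8 to mitochondria, was 2.03-fold higher in FaDu with miR-99a-3p, at 10934 against 5393, a log2 ratio of 1.02 with a spot error of 0.22. Its second probe, on the same stretch of chromosome 22, gave 1.03. The BID ratio fell short of 2-fold, at 0.93 to 0.99, with normexp, with the array centred on its median and with the mean of the FaDu mock channels as control. In PC3 with miR-150-3p the log2 ratio of BID was -0.69 on both probes, with a signal of 6131 in mock and 3806 in transfected cells on the brightest. With miR-100-3p it was 0.46 on the brightest probe and 0.54 on the other, and on the remaining arrays it lay between -0.04 and 0.19. The BID probes are neighbours, at chr22:18218265-18218324 for the brightest and chr22:18218182-18218241 for the other (hg19).

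**Figure D3:**
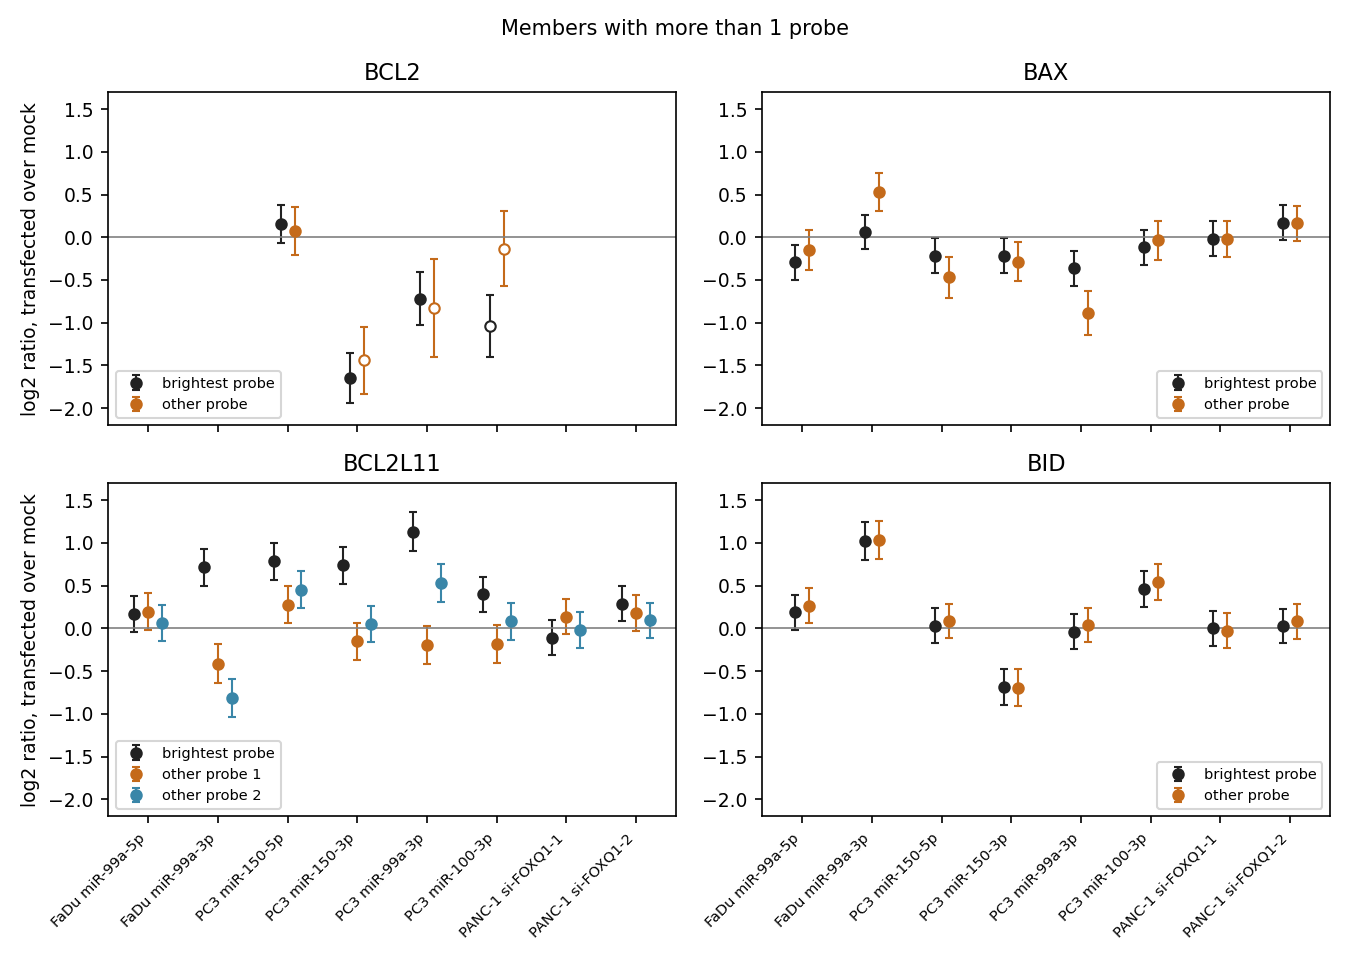
Log2 ratio of transfected over mock cells for the members with more than 1 probe, with a colour per probe, bars for the spot error, filled points where both channels and open points where only the mock channel was well above background. The BID probes coincide, while in the BCL2L11 panel the other probes (1 the middle, 2 the upstream probe) lie below the brightest by 0.5 log2 units or more in cells with miR-99a-3p.

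Set side by side, miR-99a-3p gave FaDu and PC3 like values for BCL2L1 (-0.84 and -0.60), MCL1 (0.44 and 0.38) and PMAIP1 (-0.84 and -0.82). The lines had opposite signs for BBC3 (-1.19 and 0.74) and BIK (-1.25 and 0.58), and BID was 1.02 in FaDu and -0.04 in PC3. In PC3, miR-99a-3p and miR-100-3p, which share a mock RNA, gave BCL2L11 1.13 and 0.40, BBC3 0.74 and -0.07, PMAIP1 -0.82 and -0.15, and BIK 0.58 and 1.17. The strands of miR-150, which share the other mock RNA, gave BCL2 0.16 and -1.65, BCL2L1 -0.34 and -1.02, BAK1 -0.80 and 0.25, and BID 0.03 and -0.69 for miR-150-5p and miR-150-3p. With 1 array each, none of these differences has a test.

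Levels in mock cells could be compared between the lines, on the log2 signal over the array's 75th percentile. The differences were tested with limma over the 4 mock RNAs with Benjamini-Hochberg adjustment over the 22731 genes tested. The spread comes from the 2 PC3 mock RNAs alone, and the single FaDu and PANC-1 RNAs are assumed to vary like them. Between PC3 and FaDu 7 of 10 members passed an adjusted p of 0.05, where 55.4% of all genes did, and 4 also differed 2-fold, against 40.0% of genes. Between PC3 and PANC-1 5 passed, against 43.8%, and all 5 differed 2-fold, against 31.8%. Between FaDu and PANC-1 4 passed, against 45.2%, and 3 differed 2-fold, against 36.2%. With the 8 mock channels taken as separate samples, as first planned, 9, 9 and 7 members passed, against 74.6%, 66.4% and 68.7% of genes, with p-values that then rest mostly on technical spread. The members' shares lie near those of all genes in each comparison.

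BIK separated the lines most. Its mock level was 5.77 in FaDu and 0.60 ± 0.56 in PC3 (SD, n = 2 mock RNAs), 36.1-fold higher in FaDu with a limma adjusted p of 0.0036. In PANC-1 BIK was not well above background, so that FaDu was at least 521-fold and PC3 at least 14.4-fold higher. These bounds are 366-fold and 10.1-fold when the highest dim signal is taken as the limit. The limma adjusted p, 0.0027 and 0.0038, is for the measured levels with the dim signal as read, not for the bounds. BCL2 was at -1.06 ± 0.58 (SD, n = 2 mock RNAs) in PC3 and dim in the other lines, at least 3.74-fold higher than in FaDu (adjusted p = 0.0075) and at least 4.58-fold higher than in PANC-1 (adjusted p = 0.0068). For both genes the PC3 mock RNAs stand apart from each other by about 0.8 log2 units, less than the gap to the next line.

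BBC3 was 6.30-fold lower in PC3 than in FaDu (adjusted p = 0.0026) and 3.78-fold lower than in PANC-1 (adjusted p = 0.0055), at 1.08 ± 0.10 in PC3 (SD, n = 2 mock RNAs), 3.73 in FaDu and 3.00 in PANC-1. PMAIP1 was lowest in PANC-1, at 1.86 against 3.26 in FaDu and 3.90 ± 0.12 in PC3 (SD, n = 2 mock RNAs), a 4.13-fold difference from PC3 (adjusted p = 0.0052) and 2.65-fold from FaDu (adjusted p = 0.014). BCL2L11 was lowest in PC3, 2.55-fold below PANC-1 (adjusted p = 0.0092) and 1.64-fold below FaDu (adjusted p = 0.028). BCL2L1 was lowest in FaDu, 2.08-fold below PC3 (adjusted p = 0.023) and 2.27-fold below PANC-1 (adjusted p = 0.029). BAX was 1.88-fold higher in FaDu than in PC3 (adjusted p = 0.017). With no filter on dim probes, BCL2L1, BAX, PMAIP1 and BCL2L11 no longer passed between PC3 and FaDu, nor BCL2L1 and BBC3 between FaDu and PANC-1.

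MCL1, BAK1 and BID passed in no comparison of lines over the mock RNAs. MCL1 levels were 2.83 in FaDu, 2.78 in PANC-1 and 2.51 ± 0.08 in PC3 (SD, n = 2 mock RNAs), and its largest difference, PC3 minus FaDu, was -0.32 with a standard error of 0.16. BAK1 was 0.48 higher in PC3 than in either other line, with a standard error of 0.15 and adjusted p of 0.066 and 0.080 in limma. BID was highest in PANC-1 at 5.23, with 4.65 ± 0.20 in PC3 (SD, n = 2 mock RNAs) and 4.57 in FaDu. PMAIP1 between PC3 and FaDu (adjusted p = 0.045) and BBC3 between FaDu and PANC-1 (adjusted p = 0.0497) passed narrowly. Leaving out single mock channels took the PMAIP1 adjusted p in limma to between 0.0511 and 0.0673 without the FaDu miR-99a-5p, PC3 miR-150-5p, PC3 miR-150-3p or PC3 miR-100-3p channel. It took that of BBC3 to between 0.0556 and 0.0650 without any of 6 of the 8 channels, the FaDu miR-99a-3p and PANC-1 si-FOXQ1-1 ones excepted.

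**Figure D4:**
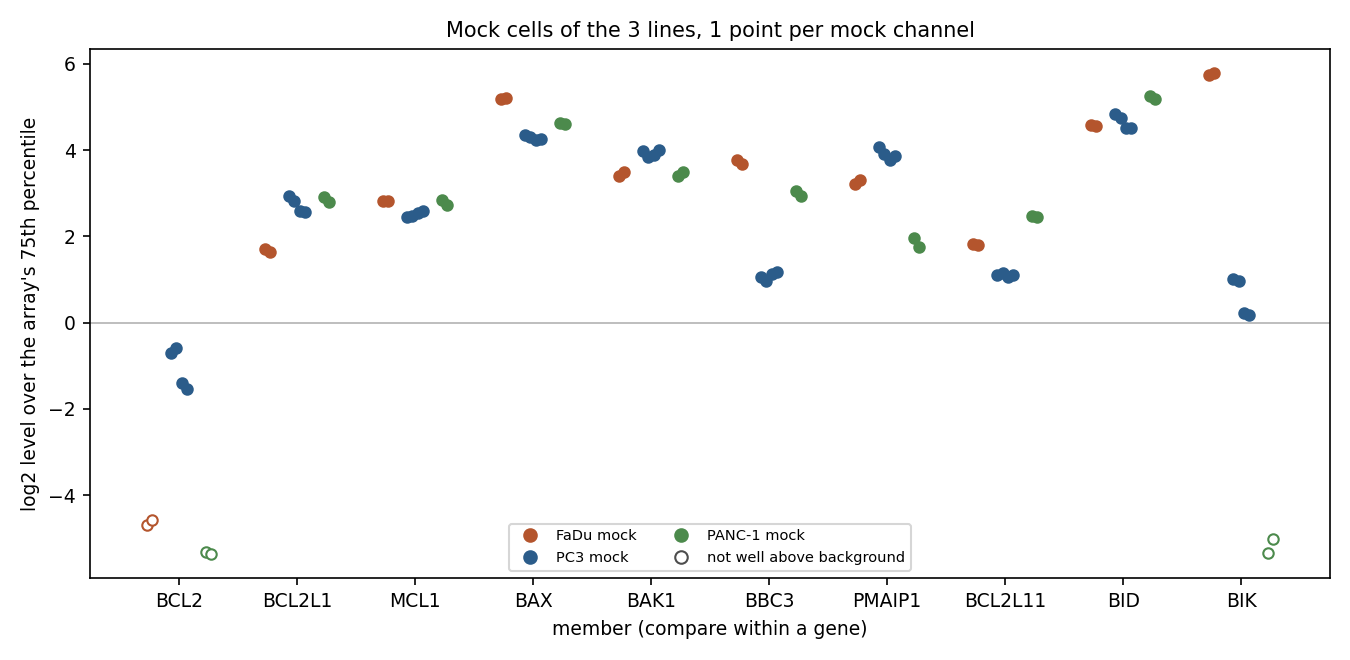
Log2 level over the array's 75th percentile in mock cells, 1 point per mock channel, for FaDu, PC3 and PANC-1, with open points for channels not well above background. Points are to be compared within a gene. BIK spans the widest range, from FaDu at the top to dim PANC-1 channels, and the PC3 points of BCL2 and BIK fall into their 2 mock RNAs.

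The rest of the family was less often detected. Of 11 other BCL2 family genes, 7 to 10 were detected on an array. BMF, a BH3-only gene tied to the cytoskeleton, was 2.46 higher in PC3 with miR-99a-3p (577 in mock and 3174 in transfected cells) and 1.38 higher with miR-150-3p (357 and 926). It was also 1.39 higher with si-FOXQ1-2 (83.4 and 219). HRK, another BH3-only gene, was at -2.46 in FaDu with miR-99a-3p, from 1919 to 349. On each array no more than 1 of these genes was higher and 1 lower, among the shares of all genes given above.

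Downstream of the mitochondria, no caspase or apoptosome gene of 9 was past 2-fold on any array other than CASP6, at 1.09 in FaDu with miR-99a-3p. Of 11 death receptor, ligand and adaptor genes, at most 2 were past 2-fold on an array. FAS (1.60) and its adaptor FADD (1.16) were higher in FaDu with miR-99a-3p, and the ligand gene TNFSF10, which codes for TRAIL, was 1.90 higher with miR-150-3p and 1.40 higher with miR-99a-3p in PC3, from mock signals of 32.1 and 46.2. Among 10 IAP genes and antagonists, 3 of 9 detected were higher in FaDu with miR-99a-3p. BIRC5, whose product survivin is made in dividing cells, was 1.21 higher in FaDu with miR-99a-3p and at -2.41 in PC3 with miR-99a-3p. NAIP was 1.10 higher in FaDu with miR-99a-3p, BIRC3 was 1.25 higher in PC3 with miR-150-3p and BIRC7 was at -1.11 with si-FOXQ1-1. Of 11 mitochondrial partners and regulators of the family, USP9X, a deubiquitinase known to act on MCL1, was 1.28 higher in FaDu with miR-99a-3p and at -1.02 with si-FOXQ1-2, and MTCH2, a mitochondrial receptor for truncated BID, was at -1.05 with miR-150-5p. The MCL1 mRNA ratio with si-FOXQ1-2 was -0.65, and a link between it and USP9X was not tested.

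Of the 15 p53-list genes with a probe, 4 of 14 detected were lower in FaDu with miR-99a-3p, among them GDF15 at -2.05, SESN2 at -1.86 and PLK3 at -1.47, with a list median of -0.33. In PC3 with miR-99a-3p, 1 was higher, TP53INP1 at 2.17, and 3 were lower, among them AEN at -1.87 and DDB2 at -1.18. With miR-150-3p, TP53INP1 was higher, at 307 in mock and 868 in transfected cells, and AEN was at -1.10. The medians of this list lay between -0.34 and -0.03 on the 8 arrays, where the median over all genes lit in both channels was between 0.00 and 0.07.

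The interferon-response, proliferation and integrated stress response lists had their largest medians, in size, on PC3 with miR-150-3p, PC3 with miR-99a-3p and FaDu with miR-99a-3p. On PC3 with miR-100-3p, which had 2 calls, the medians of these lists were -0.29, -0.48 and 0.04. On PC3 with miR-150-3p, where BCL2 and BCL2L1 were lower, 20 of 22 interferon-response genes were at least 2-fold higher, with a median of 2.15 and a range of 0.75 to 3.30. IFI6 was at 3.30, RSAD2 at 3.30 and MX2 at 3.14. On the same array the 16 proliferation genes had a median of -0.73 and a range of -1.18 to -0.15, and 2 of them were at least 2-fold lower. On PC3 with miR-99a-3p, where BCL2L11 and BMF were higher, all 16 proliferation genes were lower, with a median of -2.06 and a range of -3.39 to -1.18, RRM2 being at -3.39, CDK1 at -3.03 and TYMS at -2.76. On FaDu with miR-99a-3p, where BIK and BBC3 were lower and BID higher, all 8 integrated stress response genes were lower, with a median of -2.75, DDIT3 being at -3.67, TRIB3 at -3.04 and ASNS at -2.82. There 11 of 22 interferon-response genes were higher and 1 lower, and 6 of 16 proliferation genes were higher. Of 6 squamous markers 4 were lower, among them KRT6A at -2.83, DSG3 at -1.94 and KRT14 at -1.66, and 1 was higher, at 1.19. The part of these changes in the members' values was not tested. As the arrays read RNA of whole cultures, fewer cells of a kind and less RNA per cell cannot be told apart.

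On PC3 with miR-100-3p the proliferation genes had a median of -0.48 with none past 2-fold, and 3 of 22 interferon-response genes were lower, among them IFIH1 at -1.77 and OASL at -1.26. With miR-150-5p 4 interferon-response genes were lower, OASL at -1.43, IFI44 at -1.41 and IFIT2 at -1.18 among them. In PANC-1 the interferon-response genes split, with MX1 at 2.00, IFI27 at 1.53 and OASL at -1.57 with si-FOXQ1-1, and HERC5 at -1.14, OASL at -1.12 and IFIT3 at -1.02 with si-FOXQ1-2. FaDu with miR-99a-5p had 1 interferon-response gene and 1 proliferation gene, RRM2 at 1.02, past 2-fold.

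**Figure D5:**
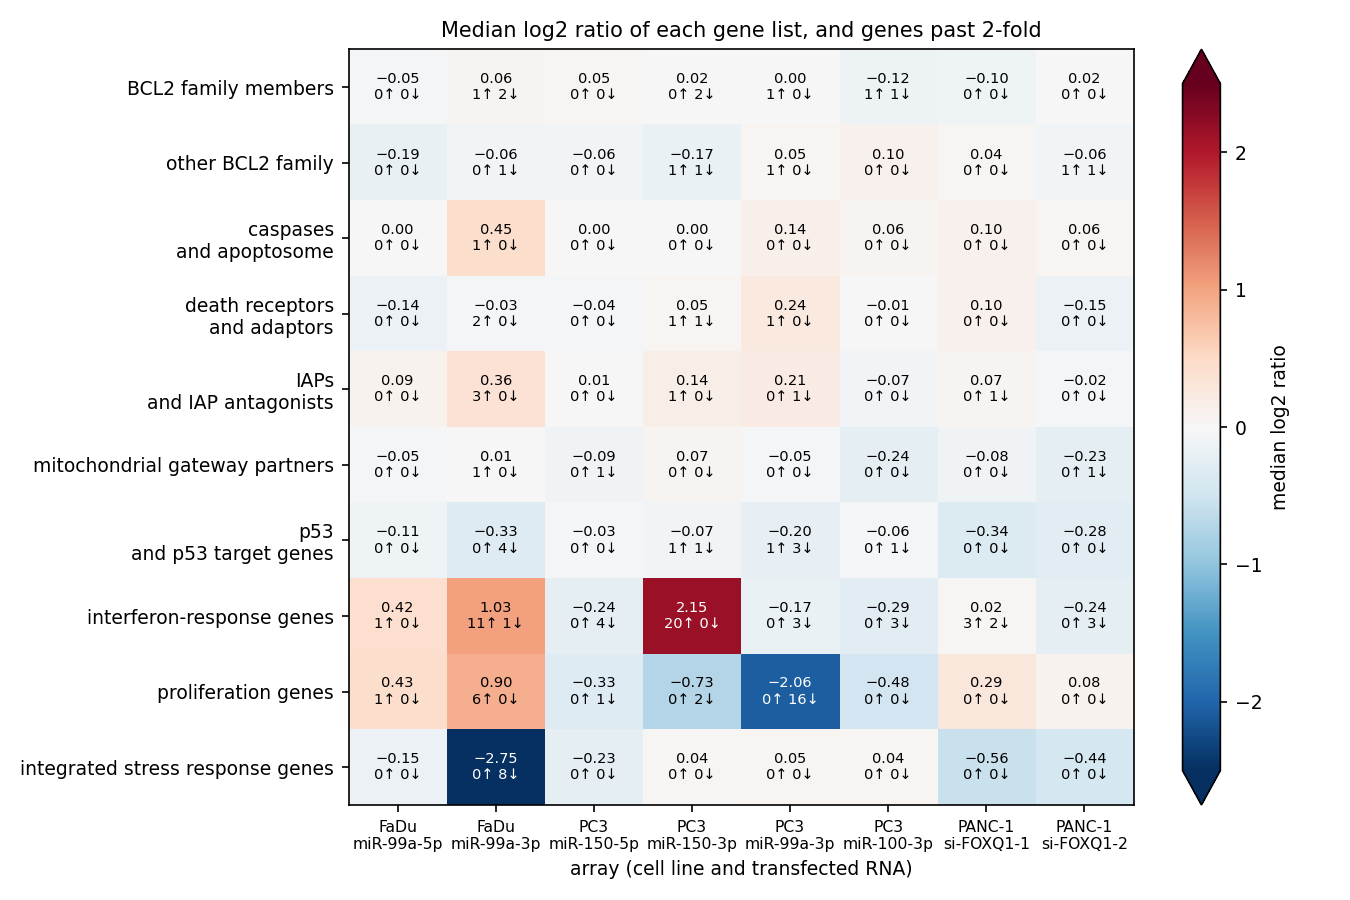
Median log2 ratio of each gene list (rows) on each array (columns) over the genes detected there, with the numbers of genes at least 2-fold higher (up arrow) and lower (down arrow). The apoptosis lists stay within 0.45 of 0, while the interferon-response, proliferation and integrated stress response lists reach 2.15, -2.06 and -2.75 on 1 array each.

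The genes whose 8 log2 ratios ran most like a member's were found among about 2440 genes with a root mean square ratio of 0.5 or more. BBC3 was followed most closely by LYRM9 (Pearson r = 0.99), UGDH-AS1 (0.99) and SQSTM1 (0.99), BID by GPHN (0.97), TUBGCP5 (0.96) and GALNT14 (0.95), BCL2L1 by C19orf33 (0.97) and ETS1 (0.90), and BCL2L11 by ZNF264 (0.97), SEMA3C (0.94) and lnc-PKNOX1-2 (0.93). These are among the highest of many correlations over 8 arrays, which share a slide, the dyes and in pairs a mock RNA, and they describe these arrays only.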

How the data were processed

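Cy3-labelled mock and Cy5-labelled transfected RNA of 8 conditions were hybridised to 8 Agilent arrays, and the authors ran Agilent Feature Extraction 10.7.3.1 on each scan, per the file headers. The deposited intensity of each channel is background-corrected and dye-normalised within the array, the deposited log10 ratio is Cy5 over Cy3, and the deposited error score is the software's error of that ratio. The value table of the series is the same log10 ratio. The array design is annotated on hg19.

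Log10 ratios and errors were multiplied by 3.32 to give log2 values. Control spots and outlier-flagged spots were left out, spots of a probe were averaged, and the brightest probe of each gene was kept. Ratios had no test. Mock channels of a line whose robust SD was within 1.5 times the spot error (0.0289 log2 units) were averaged as 1 mock RNA. That step was added after the channels were compared, and the planned fit took 8 separate channels. Mock levels, log2 intensity minus the array's 75th percentile, were fitted with limma 3.58.1 in R 4.3.3 for genes well above background on at least 2 arrays. A dim gene has only a bound, the mean of the brighter group over the higher of the lowest signal well above background and its own. Precision is limited by the number of arrays.

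The members and gene lists were chosen with earlier results of these data known. All 10 members are named, with at most 3 genes of each other list and array, those with the largest ratio past 2-fold and both channels lit. TIGAR had no probe, and a few genes that this rule or the marker lists name are not reported here. Alternatives were another background correction, control, centring, filter, probe rule and threshold. Scripts were tested on simulated data.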

Additional observations from a re-analysis of the deposited data

Results flagged for a closer look

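BBC3 differed between the lines under miR-99a-3p by 1.93 on the log2 scale, PC3 minus FaDu, with a ratio of 0.74 in PC3 and -1.19 in FaDu. BIK differed by 1.83, with 0.58 in PC3 and -1.25 in FaDu. Each moved one way in PC3 and the opposite way in FaDu by more than its spot error. The difference was not tested, since each line has 1 array. For BIK the PC3 ratio is -0.19 against the other PC3 mock RNA, which turns its sign, and for BBC3 it is 0.85.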

How the results depend on the processing

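No paired analysis was possible because no transfection was repeated and the labels number no replicates. Counts of members past 2-fold were 3 for FaDu miR-99a-3p, 2 for PC3 miR-150-3p, 1 for PC3 miR-99a-3p, 2 for PC3 miR-100-3p and 0 elsewhere. With normexp (offset 50) and loess the 3 PC3 counts above 0 became 0 and FaDu miR-99a-3p 2, and over all genes the share past 2-fold went from between 3.70% and 17.6% to between 0.140% and 6.87%. With the mean over probes, PC3 miR-99a-3p became 0 and PC3 miR-100-3p 1. With the mean of the line's mock channels as control, PC3 miR-150-3p and PC3 miR-100-3p became 0 and FaDu miR-99a-3p 2, as it did with each array centred on its median. With the other PC3 mock RNA as control, chosen after seeing the data, PC3 miR-150-3p became 0, PC3 miR-99a-3p 3 and PC3 miR-100-3p 1. Without a filter on dim probes FaDu miR-99a-5p and PANC-1 si-FOXQ1-1 became 1 and FaDu miR-99a-3p 4, and with both channels required PC3 miR-100-3p became 1. At 1.5-fold the counts were 1 for FaDu miR-99a-5p, 6 for FaDu miR-99a-3p, 3 for PC3 miR-150-5p, 4 for PC3 miR-150-3p, 5 for PC3 miR-99a-3p and 1 for PANC-1 si-FOXQ1-2, and at 4-fold all were 0. The cause of these changes was not tested. For mock cells, members passing between PC3 and FaDu went from 7 to 3 without a filter. Between PC3 and PANC-1 they went from 5 to 9 with 8 separate channels, and between FaDu and PANC-1 from 4 to 7 with 8 separate channels, to 7 with normexp and to 2 without a filter. Of 390 values of a member's mock difference under an alternative, 355 stayed on their side of the threshold, 17 no longer passed, 18 newly passed and none turned sign. Of 484 log2 ratios of members under an alternative, 38 moved by more than their spot error. Leaving out each mock channel kept these counts within 1.5 times. Leaving out a whole mock RNA of PC3 leaves no residual degree of freedom and was not run. Signals near or below the floor limit BCL2, TNFSF10 in PC3 and BIK in PANC-1.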
